A study of Homo sapiens with 2 samples.

Results

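Retinoid handling was described after MYC knockdown in HT-29, a line of human colorectal adenocarcinoma cells, through 10 genes of retinoid binding, conversion and reception. The genes were FABP5, CRABP2, ALDH1A3, RDH10, DHRS3, RARA, RARG, RXRA, PPARD and NRIP1, out of 19775 genes that a probe set of the array names alone. They were chosen with the values of these arrays in view, so their ratios are a description and support no test. The compared cells were HT-29 transfected with a pool of siRNAs against MYC (MYC siRNA) and HT-29 transfected with a non-targeting pool (control siRNA), both at 20 nM for 24 h and used after 48 h. The treatment field of the control sample reads None, its protocol gives the non-targeting pool, and the methods give that pool or another siRNA as the control without saying which the arrays used. With 1 array for each condition, differences could not be checked against replicates, and none has a p-value.

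Retinol is oxidized to retinal and then to retinoic acid, the ligand of the RAR receptors, which bind DNA as partners of RXR. Inside the cell CRABP2 carries retinoic acid to RAR. FABP5 carries fatty acids, and by some reports retinoic acid, to PPAR delta, the receptor encoded by PPARD. Retinoic acid is known for its part in the differentiation of the intestinal epithelium, and MYC is a transcription factor of growth in the same tissue.

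Signals are linear MAS5 values, in which each array was scaled by the authors to a mean target level of 100. Signals under 50 were set to 50 for each ratio, and the brightest probe set by mean signal stood for its gene. Of the 25 probe sets that name 1 of the 10 genes, 16 exceeded 50 in at least 1 array, and every gene had at least 1 of them. In all, 8917 genes were above 50 in at least 1 array and are called measured. MYC itself had a signal of 1640 with MYC siRNA and 1963 with control siRNA, which is 1.20-fold lower, and 184 of the 681 genes of like brightness had a ratio at least as low. Genes of like brightness are those with a mean signal within 1.5-fold. These signals are of MYC RNA, whereas the paper shows the knockdown as MYC protein by immunoblot. It also reports lower expression of curated MYC target genes. The signal exceeded 50 in 16571 probe sets with MYC siRNA and in 16074 with control siRNA. Of 12 colon epithelium markers, 9 were measured, with a summed signal of 42830 with MYC siRNA and 36612 with control siRNA. CEACAM5 was the 1 marker of the 9 past 2-fold, at 613 with MYC siRNA and 281 with control siRNA (2.18-fold higher), LGALS4, KRT19, KRT20, VIL1, KRT8 and CDH1 were higher by between 1.72-fold and 1.12-fold, and EPCAM and KRT18 were lower, at log2 ratios of -0.19 and -0.03. CDX1, CDX2 and GPA33 were at or under 50. Neither array exceeded 50 for any of 6 endothelial and 5 adipocyte markers, for 7 of 8 fibroblast markers, for 5 of 6 blood cell markers or for 5 of 7 squamous keratinocyte markers with a probe set. The exceptions with MYC siRNA and control siRNA were COL1A1 at 78.9 and 94.7, LYZ at 6854 and 6077, KRT10 at 930 and 945, and SPRR1B at 124 and 34.1. The part of these markers in the results was not tested, and in RNA of whole cultures fewer expressing cells and less RNA per cell cannot be told apart.

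From the RefSeq promoter table of GRCh38.p14, 15 windows were used for 8 of the 10 genes, each of 300 bases from 250 before to 50 after a start. No window was used for FABP5 and RDH10, so their promoters were not searched. The windows were searched on both strands for CACGTG, the palindromic E-box that MYC can bind, for AGGTCA, the half-site of retinoid receptors, and for CCAAT, the site of the NF-Y factor. The letters CACGTG stood in 1 of the 15 windows, AGGTCA in 2 and CCAAT in 4. Over all 35116 windows of the table, 7.26% held CACGTG, 13.8% AGGTCA and 34.6% CCAAT. A match is a description of the letters and not of a bound site. The windows with CACGTG and AGGTCA are shown because they are the letters of the transcription factor that was knocked down and of the receptors described here. Capitals mark the match, positions count from the start with the start as 1, and each line reads 5′ to 3′ along the gene.
RARA, CACGTG at 34, chr17:40318265-40318294, plus strand: gtttcagcctccgCACGTGactcgctatgg
RARA, AGGTCA at -230 of another start, chr17:40308938-40308967, plus strand: ttctcctgtttcAGGTCAtcctatcctcga
DHRS3, AGGTCA on the opposite strand at -171, chr1:12596767-12596796, minus strand: ttcttgcactttTGACCTtccccacaccag
The 250 bases before the start of ALDH1A3 are shown because ALDH1A3 was the 1 gene of the 10 that was at least 2-fold higher with MYC siRNA. They held a CCAAT at -71, in capitals, and neither of the other motifs, and 82.4% of their bases were G or C.
ALDH1A3, chr15:100879581-100879830, plus strand: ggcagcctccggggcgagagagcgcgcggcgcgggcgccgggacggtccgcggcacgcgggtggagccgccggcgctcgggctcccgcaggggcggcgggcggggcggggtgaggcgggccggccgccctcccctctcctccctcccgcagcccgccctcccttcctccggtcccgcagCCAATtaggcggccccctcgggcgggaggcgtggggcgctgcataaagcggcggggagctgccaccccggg

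The 10 genes did not move together. With MYC siRNA, 7 were higher and 3 lower than with control siRNA, and the median log2 ratio was 0.44, against 53.5% of genes higher and a median of 0.03 over all measured genes. The methods call a gene an UP DEG (DEG, differentially expressed gene) where this ratio is 2 or more and a DOWN DEG where it is 0.5 or less. ALDH1A3 was the 1 gene among the UP DEGs by its brightest probe set, where 2.73% of all measured genes were, and FABP5 the 1 gene among the DOWN DEGs, where 0.695% were. At 1.5-fold, ALDH1A3, DHRS3 and RXRA were higher, beside 10.4% of measured genes, and FABP5 was the 1 gene lower, beside 5.72%. PPARD, at a log2 ratio of 0.58, was just under 1.5-fold. These shares are given as background and nothing is read from them, since the genes were picked on the same arrays.

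**Figure D1:**
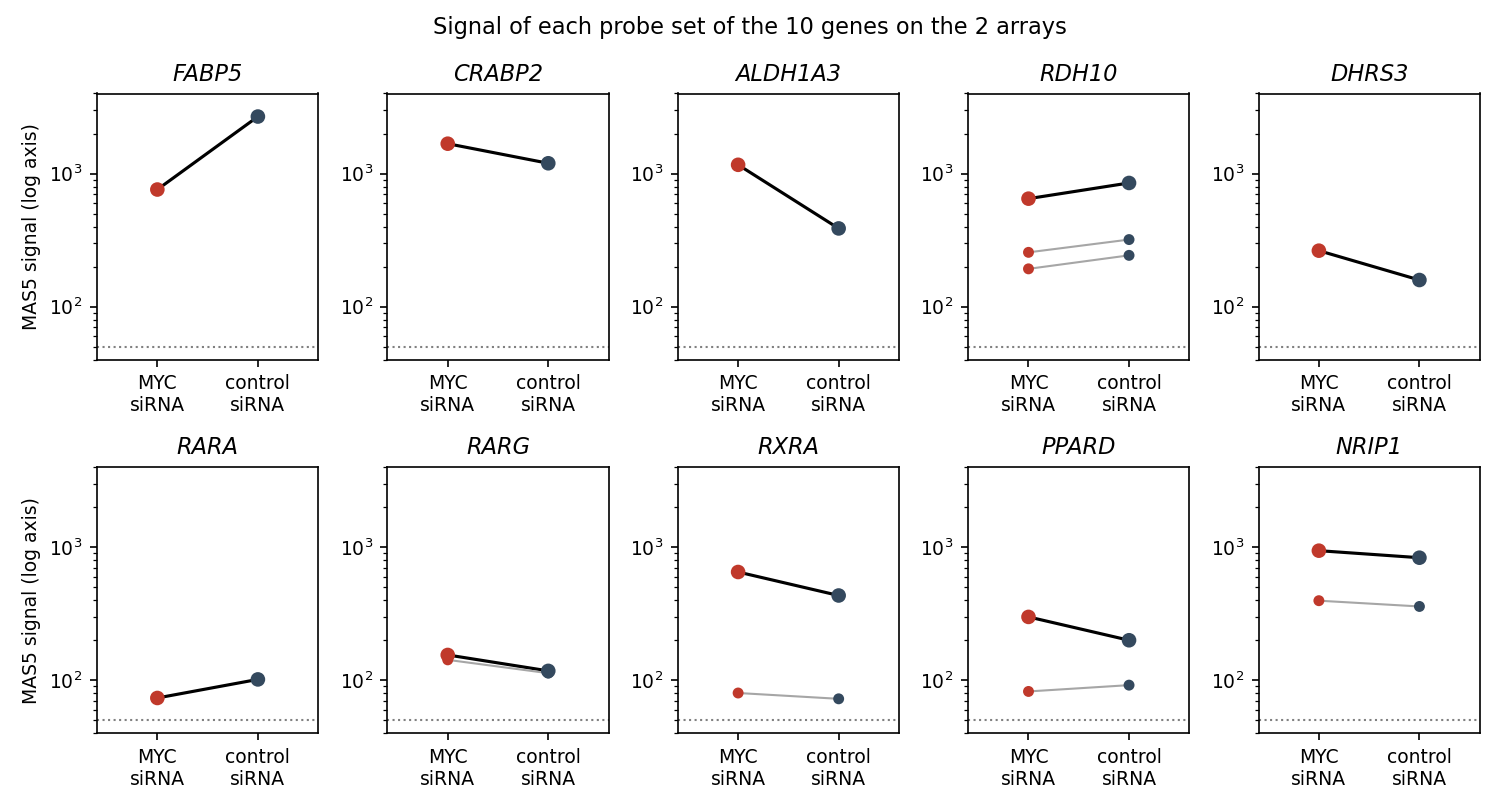
MAS5 signal (y axis, log scale) of the 16 measured probe sets of the 10 genes with MYC siRNA (red, left) and control siRNA (blue, right), joined by a line for each probe set. Black lines are the brightest probe set of a gene, grey lines the others and the dotted line a signal of 50; FABP5 is lower with MYC siRNA (759 against 2685) and ALDH1A3 higher (1165 against 387).

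The 2 binding proteins, FABP5 and CRABP2, went in opposite directions. FABP5, the epidermal fatty acid-binding protein, had a signal of 759 with MYC siRNA and 2685 with control siRNA, which is 3.53-fold lower. This log2 ratio of -1.82 was the lowest of all 8917 measured genes, and so necessarily below those of the 884 genes of like brightness. The median of those 884 was -0.07. FABP5 has 1 probe set of its own, of a type that can bind several transcripts, and FABP5 has near-identical pseudogenes, so its signal is uncertain to that extent. CRABP2, the retinoic acid-binding protein that serves RAR, had a signal of 1678 with MYC siRNA and 1196 with control siRNA, which is 1.40-fold higher. Of 892 genes of like brightness, with a median log2 ratio of -0.08, 60 had a ratio at least as high as the 0.49 of CRABP2. The log2 ratio of CRABP2 lay 2.31 above that of FABP5, so the signal of CRABP2 relative to that of FABP5 was 4.96-fold higher with MYC siRNA than with control siRNA.

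Most other binding proteins of fatty acids and retinoids were too dim to compare. Of 17 with a probe set, 14 did not exceed 50 in either array. The highest signal of any probe set was 5.41 with MYC siRNA and 1.34 with control siRNA for FABP1, the liver form of the family, and 0.649 with MYC siRNA and 5.92 with control siRNA for FABP2, the intestinal form. STRA6, the membrane receptor that takes up retinol, reached 22.8 with MYC siRNA and 23.3 with control siRNA. The 1 other measured gene was RBP4, the carrier of retinol in blood, at 104 with MYC siRNA and 39.5 with control siRNA, so that it was at least 2.07-fold higher.

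Among genes with a control signal within 2-fold of its own, the 3 nearest to FABP5 in log2 ratio were SLC7A5, an amino acid transporter, at -1.36, MT1HL1, a metallothionein-like gene, at -1.19, and PSAT1, an enzyme of serine synthesis, at -1.05, out of 835 genes. None came closer than 0.46 to the ratio of FABP5. The 3 nearest to CRABP2, out of 1801, were ASAP2, CMTM6 and KRT80, each at 0.49. Likeness here rests on 1 ratio from 2 arrays.

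**Figure D2:**
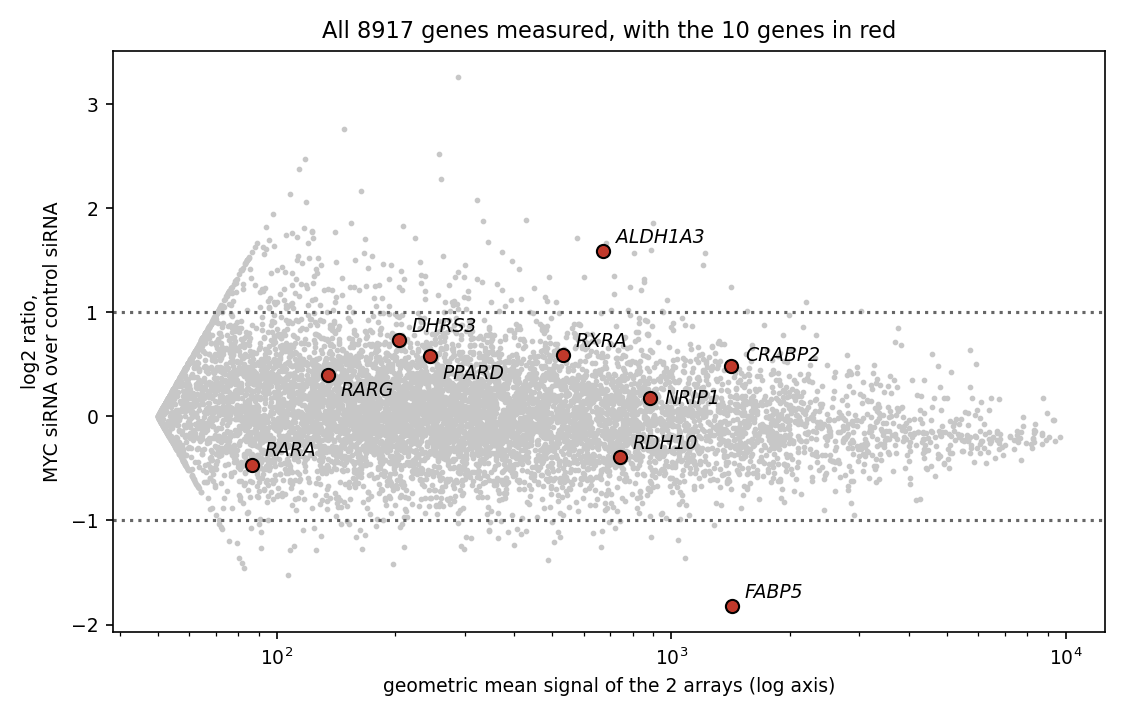
Log2 of the MYC siRNA signal over the control siRNA signal (y axis) against the geometric mean signal of the 2 arrays after setting signals under 50 to 50 (x axis, log scale) for 8917 measured genes (grey), with the 10 genes in red. Dotted lines mark 2-fold; FABP5 at -1.82 lies below every other point, and ALDH1A3 at 1.59 above the upper line.

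The enzymes of retinoid conversion also differed in direction. ALDH1A3 encodes a retinaldehyde dehydrogenase, which makes retinoic acid from retinal. Its signal was 1165 with MYC siRNA and 387 with control siRNA, which is 3.01-fold higher (log2 ratio 1.59), and 39 of the 8917 measured genes, ALDH1A3 included, had a ratio at least as high. Among 1632 genes of like brightness, 4 did. The other probe set of ALDH1A3 had signals of 0.371 with MYC siRNA and 0.179 with control siRNA and gives no ratio. With the mean log2 ratio over both, which counts that probe set as unchanged, ALDH1A3 was at 0.79 and no longer an UP DEG.

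RDH10 oxidizes retinol to retinal, the step before ALDH1A3. Its brightest probe set had a signal of 648 with MYC siRNA and 851 with control siRNA, which is 1.31-fold lower. The other measured probe sets gave 256 and 193 with MYC siRNA, against 320 and 243 with control siRNA, with log2 ratios of -0.32 and -0.34 beside the -0.39 of the brightest, so that all 3 were lower. The remaining probe set was at or under 50 in both arrays.

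DHRS3 reduces retinal back to retinol and is known to be induced by retinoic acid. It had a signal of 264 with MYC siRNA and 159 with control siRNA, which is 1.66-fold higher (log2 ratio 0.73), and 146 of 2346 genes of like brightness had a ratio at least as high. It was measured by 1 probe set. RDH10 and DHRS3, which drive retinol and retinal in opposite directions, lay 1.12 apart in log2 ratio, with DHRS3 the higher.

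Of 36 written enzymes of retinoid metabolism with a probe set, 16 were measured, of which 14 were higher and 2 lower with MYC siRNA (median log2 ratio 0.34, and 0.28 without the members RDH10, DHRS3 and ALDH1A3). Above 50 in both arrays were 15, 13 of them higher, beside 51.7% of all genes above 50 in both. The enzymes past 2-fold, beside 2.73% of all measured genes UP, were ALDH1A3 and DHRS9. DHRS9, a short-chain dehydrogenase of retinol, was at 391 with MYC siRNA and 193 with control siRNA (2.02-fold higher). The other probe sets of DHRS9 had 365 and 345 with MYC siRNA, against 182 and 211 with control siRNA. CYP1B1, a cytochrome P450 that can oxidize retinoids, was higher by 1.62-fold, 1.61-fold and 1.56-fold in its 3 measured probe sets. DHRS7, of the same short-chain family, was 1.62-fold higher. RDH13, a mitochondrial retinol dehydrogenase, was 1.63-fold lower, and its other measured probe sets gave log2 ratios of -0.52 and -0.49. RDH13 and RDH10 were the 2 lower enzymes.

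ALDH1A1, the other retinaldehyde dehydrogenase measured here, had a signal of 5303 with MYC siRNA and 4354 with control siRNA, 1.22-fold higher. The brighter probe set of ALDH1A2, which also makes retinoic acid, reached 10.2 with MYC siRNA and 12.2 with control siRNA. DGAT1, an acyltransferase that can esterify retinol for storage, had a signal of 263 with MYC siRNA and 169 with control siRNA, 1.55-fold higher. The highest signal was 7.90 with MYC siRNA and 2.68 with control siRNA for CYP26A1, which degrades retinoic acid, and 0.188 with MYC siRNA and 0.321 with control siRNA for LRAT, the main enzyme that esterifies retinol.

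Of the 4 receptor genes, RXRA, PPARD and RARG were higher and RARA lower with MYC siRNA, each by less than 2-fold. RXRA encodes the partner with which RAR and PPAR bind DNA. Its brighter probe set had a signal of 650 with MYC siRNA and 433 with control siRNA, a log2 ratio of 0.59, and 128 of 1875 genes of like brightness had a ratio at least as high. The other probe set had 80.1 with MYC siRNA and 72.5 with control siRNA (log2 ratio 0.15), so both were higher but by different amounts.

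PPARD, the receptor that FABP5 serves, had a signal of 299 with MYC siRNA and 199.6 with control siRNA in its brightest probe set, a log2 ratio of 0.58. The second measured probe set went the other way, at 82.3 with MYC siRNA and 91.8 with control siRNA (log2 ratio -0.16). The 2 remaining probe sets were at or under 50 in both arrays, so the direction of PPARD depends on the probe set.

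RARG, a receptor of retinoic acid known from epithelia, was higher in both of its measured probe sets, by similar amounts. The signals were 155 and 142 with MYC siRNA, against 118 and 113 with control siRNA, with log2 ratios of 0.40 and 0.33. The median of its 2203 genes of like brightness was 0.08, and 530 of them had a ratio at least as high.

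RARA, the RAR form that is expressed in most tissues, had a signal of 73.5 with MYC siRNA and 101 with control siRNA, which is 1.38-fold lower (log2 ratio -0.46). This rests on 1 of its 5 probe sets, close to the floor, and neither array exceeded 50 for the others. Dim genes on these arrays were on the whole higher with MYC siRNA, and of 2045 genes of like brightness, with a median of 0.19, 175 had a ratio as low as that of RARA. The log2 ratio of RARG lay 0.86 above that of RARA.

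Of 16 nuclear receptors of retinoids, fatty acids and related ligands with a probe set, 12 were measured, 7 higher and 5 lower. Their median log2 ratio was 0.10 (0.02 without the 4 members), and none was an UP or DOWN DEG. Of all measured genes, 53.5% were higher, 2.73% UP and 0.695% DOWN. NR1H3, the oxysterol receptor LXR alpha, was 1.33-fold higher. PPARG, the PPAR form best known from fat cells, had a signal of 480 with MYC siRNA and 440 with control siRNA. The highest signal of RARB, a classic target of retinoic acid, was 9.93 with MYC siRNA and 10.1 with control siRNA over 5 probe sets.

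NRIP1 encodes a corepressor (RIP140) that binds RAR and other receptors carrying their ligand, and it is known to be induced by retinoic acid. Its brighter probe set had a signal of 940 with MYC siRNA and 833 with control siRNA, 1.13-fold higher, and the other 396 with MYC siRNA and 358 with control siRNA, 1.11-fold higher. These log2 ratios of 0.18 and 0.14 are within 0.19, the SD of this ratio among probe sets of one gene for equally bright genes. By brightness class, that SD was 0.27 in dim, 0.22 in middle and 0.19 in bright genes. The SD leaves out the variation between cultures. Of 24 measured coregulators of nuclear receptors, 12 were higher and 12 lower (median 0.01), or 12 and 11 of those above 50 in both arrays. None was a DEG, beside 2.73% of all measured genes UP and 0.695% DOWN. KAT2A, a histone acetyltransferase, was 1.94-fold lower, and the arginine methyltransferases CARM1 and PRMT1 were 1.52-fold and 1.51-fold lower. NCOA1 went the other way, 1.69-fold higher, but close to the floor at 87.1 with MYC siRNA and 51.6 with control siRNA. ASXL1 was 1.84-fold lower in its brightest probe set, but the log2 ratios of its 4 other measured probe sets were between -0.21 and 0.11.

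**Figure D3:**
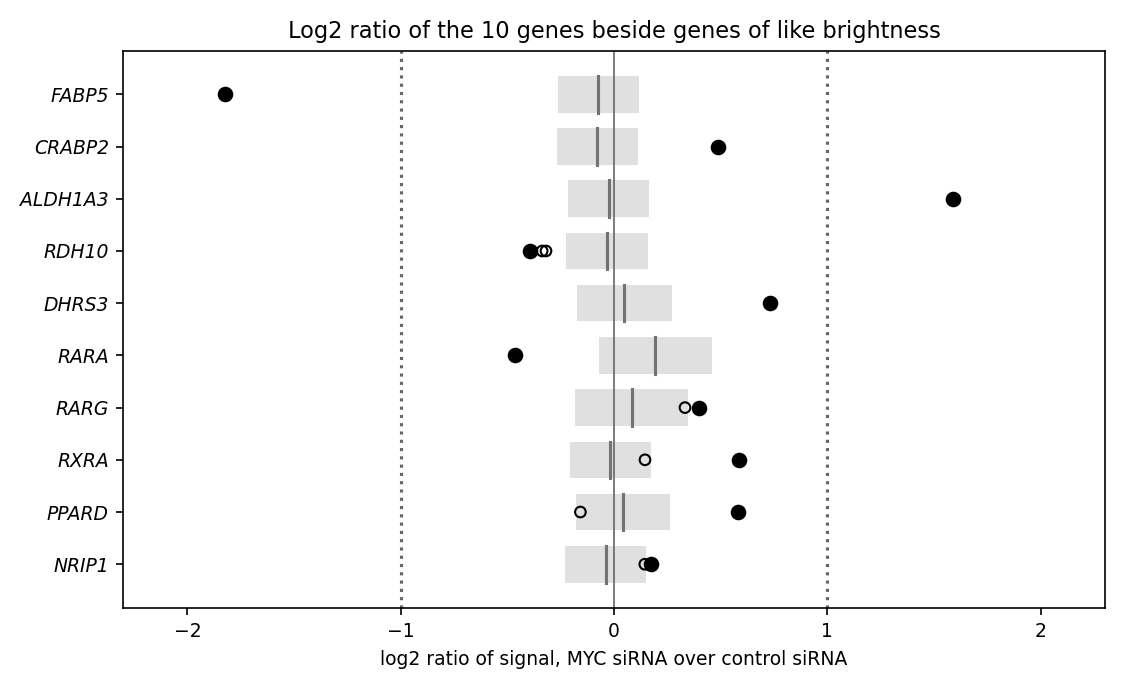
Log2 of the MYC siRNA signal over the control siRNA signal (x axis) for the brightest probe set of each of the 10 genes (filled) and of its other measured probe sets (open). Short grey lines are medians of genes of like brightness, grey bars span 1 SD between probe sets of a gene either way around them, and dotted lines mark 2-fold; the open point of PPARD at -0.16 lies on the other side of 0 from its filled point at 0.58.

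Of 26 written genes with a probe set that retinoic acid is known to induce, 12 were above 50 in both arrays, 10 of them higher and 2 lower with MYC siRNA, with 3 UP DEGs, no DOWN DEG and a median log2 ratio of 0.41. Of all 8277 genes above 50 in both arrays, 51.7% were higher and 2.33% UP, with a median of 0.02. With RARRES1 and RARRES2, which were above 50 with MYC siRNA and not with control siRNA and so could only be higher, 14 were measured and the median was 0.58, or 0.20 with a floor of 100. CRABP2, DHRS3 and NRIP1 are on this list too. Without them the median of the other measured genes, RARRES1 and RARRES2 included, was 0.67 with the floor of 50. This list, like the others here, was written with earlier results of these data known, so its counts are a description and support no test. PLAAT4, a phospholipid-metabolizing enzyme also named RARRES3, had a signal of 894 with MYC siRNA and 93.3 with control siRNA, and TGM2, a transglutaminase, 618 with MYC siRNA and 107 with control siRNA. The other measured probe sets of TGM2 were closer, at 160 and 103 with MYC siRNA, against 73.4 and 53.7 with control siRNA, and the second of them was under 2-fold. LCN2, an iron-scavenging lipocalin, was 2.03-fold higher. RARRES1 had 105 and RARRES2 101 with MYC siRNA, against 31.2 and 36.1 with control siRNA. SOX9, a transcription factor of intestinal crypts, had a signal of 1143 with MYC siRNA and 902 with control siRNA. FOXA1 was 1.35-fold lower. CYP26A1 and RARB, on the same list, were among the 12 genes at or under 50. Several of these genes are induced by other signals as well.

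Of 21 written targets of PPAR delta with a probe set, 16 were above 50 in both arrays and 5 in neither. FABP5 was lower and the other 15 had positive log2 ratios, with a median of 0.26 over the 16 (0.27 without FABP5). Of all genes above 50 in both arrays, 51.7% were higher and 2.33% UP. UCP2 was the 1 UP DEG of the list. The activity of PPAR delta was not measured, and genes of this list may respond to other signals as well. PDPK1, ACAA2, TXNIP, IMPA2 and PLIN2, at 0.03, 0.07, 0.13, 0.19 and 0.20, were within the SD between probe sets of a gene in their brightness class. UCP2, a carrier of the inner mitochondrial membrane, had a signal of 2103 with MYC siRNA and 706 with control siRNA, 2.98-fold higher, and 2.32-fold in its other probe set. Enzymes of fatty acid oxidation were less far apart, with ECH1 1.66-fold, ACADVL 1.44-fold and CPT1A 1.33-fold higher. ILK, an integrin-linked kinase, was 1.38-fold higher.

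The uptake and activation of fatty acids did not share this direction. Of 13 measured genes, 5 were higher and 8 lower, with a median log2 ratio of -0.24 and no DEG. Above 50 in both arrays were 12, 4 higher and 8 lower, beside 51.7% of all genes above 50 in both that were higher. The fatty acid transport protein genes SLC27A5 and SLC27A4 were 1.75-fold and 1.45-fold lower and GOT2 1.41-fold lower. SLC27A3, of the same family, went the other way, at 81.8 with MYC siRNA and 45.2 with control siRNA. It was under 50 with control siRNA and so could only be higher. ACSL5, an acyl-CoA synthetase of the intestine, had a signal of 1478 with MYC siRNA and 1082 with control siRNA.

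**Figure D4:**
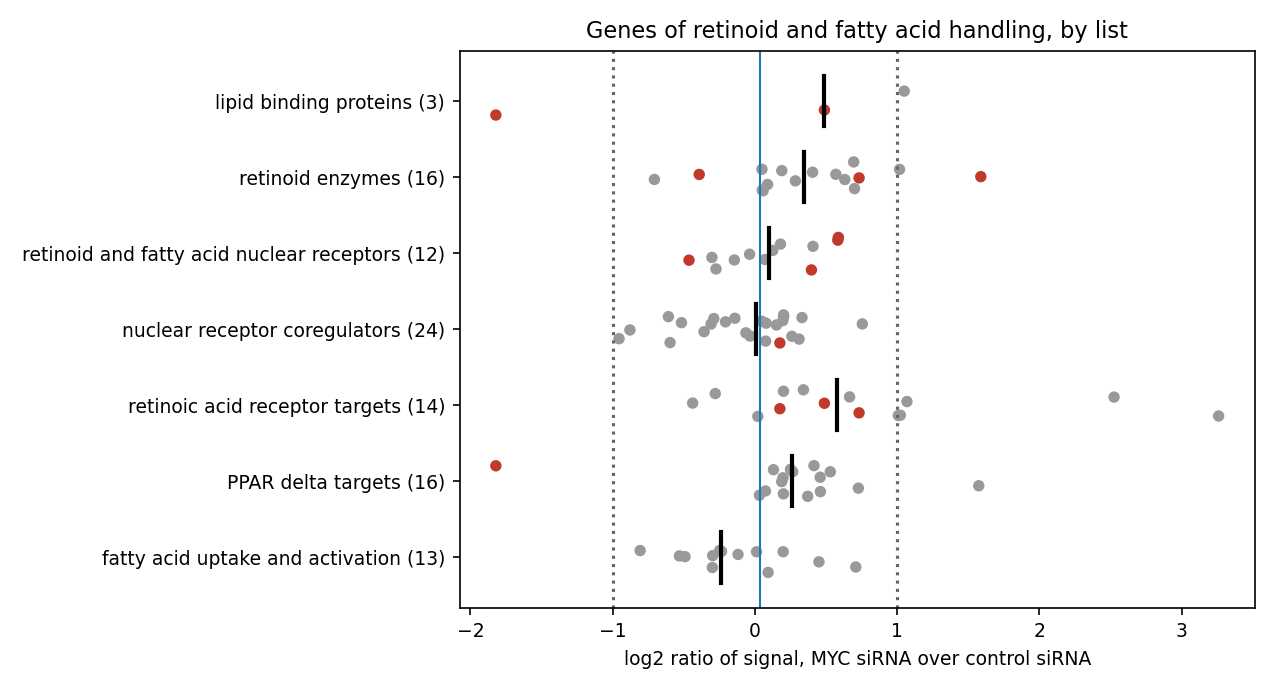
Log2 of the MYC siRNA signal over the control siRNA signal (x axis) for the measured genes (points) of 7 lists, their number in brackets and the 10 genes in red. Black bars are list medians, the blue line is the median of all measured genes (0.03) and dotted lines mark 2-fold; FABP5 at -1.82 stands alone on the left of 2 lists, and the median of retinoic acid receptor targets is 0.58, with the 2 targets at or under 50 with control siRNA included.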

How the data were processed

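RNA of HT-29 cells given MYC siRNA or control siRNA was hybridized to GeneChip Human Genome U133 Plus 2.0 arrays, 1 array per condition. The deposited intensity values are linear MAS5 signals that the authors made with affy 1.40.0. Each array was brought to a mean target level of 100, which held in both once the 2% of probe sets at either end were left out, with no normalization between arrays. The number of arrays limits the precision.

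The platform annotation gives 1 gene for 41097 of 54675 probe sets, several for 1801 and no entry for 11777. Gene identifiers led to current RefSeq symbols (GRCh38.p14). Signals under 50 were set to 50, MYC siRNA was divided by control siRNA on the log2 scale, and the brightest probe set stood for its gene. Where 1 array was under 50 the fold is a lower bound. The genes, the lists and the rule for named genes were chosen with earlier results of these data known. Named are the 10 genes, MYC, the listed genes past 2-fold with up to 4 further genes of the largest ratio at a signal of at least 100, the 3 genes nearest to FABP5 and to CRABP2, and markers above 50. Other named genes were chosen after their values were seen. Of the written list entries, 30 had no probe set of their own. The calculation was tested on an array simulated from the control array, with log2 noise of SD 0.2. Known folds were set in 200 genes with a control signal of at least 200. Dim genes, the floor and the variation between cultures were not covered. Python 3.11.15, numpy 2.4.6, pandas 2.3.3, statsmodels 0.14.6 and matplotlib 3.10.9 were used. Alternatives were other floors, scalings, probe set rules and fold thresholds.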

Additional observations from a re-analysis of the deposited data

How the results depend on the processing

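The log2 ratio of FABP5 was between -1.86 and -1.75 in the 8 alternatives that gave one, and that of CRABP2 between 0.46 and 0.57 in 9. Each has 1 probe set with signals above 100, so floors of 25 and 100 and means over probe sets could not move either ratio. Leaving out probe sets that may bind more than 1 transcript could not move that of CRABP2. Each of the 10 genes kept its direction in every alternative that measured it, but several alternatives could not reverse it. A floor or an added 1 cannot reverse the ratio of a probe set. The mean log2 ratio cannot reverse a gene with 1 measured probe set, such as ALDH1A3, DHRS3 or RARA. The measured probe sets of PPARD differed in direction all the same. The alternatives were other floors (25, 100, or none with 1 added), median centring, quantile normalization, loess on mean signal with a span of 0.3, means over probe sets, and leaving out probe sets that may bind more than 1 transcript. In the last, FABP5, RARA, RXRA and NRIP1 could not be measured, so 0 of the 10 genes was a DOWN DEG. FABP5 had the lowest ratio in all alternatives that measured it except the one with no floor, in which 1 other gene was lower. With the mean log2 ratio over all probe sets, which counts those at or under 50 as unchanged, that of ALDH1A3 was 0.79, so that 0 of the 10 genes was an UP DEG, that of PPARD was 0.11 and that of RXRA 0.37. RARA was at -0.02 where the floor was 100 and at -0.09 with that mean. At 1.5-fold, 3 of the 10 genes were UP.

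The share of all measured genes that were UP was 1.72% with a floor of 100, 4.31% with no floor, 1.56% with the mean over probe sets, 10.4% at 1.5-fold and 0.437% at 3-fold. The DOWN share was 0.381% with the mean over probe sets, 5.72% at 1.5-fold and 0.0112% at 3-fold. The median of retinoic acid receptor targets was 0.20 with a floor of 100 and 0.79 without probe sets that may bind more than 1 transcript. No paired analysis was possible because each condition has 1 array.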
